A study of Mus musculus with 24 samples.

Results

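Collagen genes were read on the arrays as the probe sets whose only listed symbol is Col, a number, the letter a and a number, such as Col1a1. This rule took 58 probe sets of 36 genes, out of 22626 probe sets and 12393 genes. The muscles were gastrocnemius and plantaris of six-week-old male mice, either weight bearing (WB) or hind limb unloaded for 6 days (HU). The mice were wild type (B6129PF2/J), Nfkb1-/- (B6;129P2-Nfkb1tm1Bal/J), which lack the p50 subunit of NF-κB, or Bcl3-/- (FVB;129P2-Bcl3tm1Ver/J), which lack the co-activator Bcl-3 that binds p50 dimers. All had 3 days of acclimation before the assignment to WB or HU. Each of the 6 groups had 4 arrays, described as biological replicates, and 4 arrays a group bound how precisely a change can be measured. The mutations are carried in every cell of the mouse, and the strain background changes with the genotype.

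Collagens are the triple-helical proteins of the extracellular matrix. Fibrillar collagens (types I, II, III, V, XI) form the tensile fibres of the epimysium, perimysium and endomysium and of the tendon, type IV with its partners forms the sheet of the basement membrane around each muscle fibre, and type VI forms beaded filaments that join both. In skeletal muscle most fibrillar and type VI collagen mRNA is made by fibroblasts of the connective tissue, and mutations in the type VI genes cause congenital muscular dystrophy in humans. Collagen mRNA in muscle is also known to respond to mechanical load.

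The Bcl3-/- arrays lie on another intensity scale. Arrays that share a scale are called a run below, a name taken from the values and not from a sample label. The array medians ran from 11.6 to 11.9 on the 16 wild type and Nfkb1-/- arrays and from 81.1 to 86.8 on the 8 Bcl3-/- arrays. Over the collagen probe sets tested, the mean of the Bcl3-/- WB arrays divided by that of the wild type WB arrays ran from 3.08 to 124, with a median of 7.36. Levels of Bcl3-/- mice are therefore not set against those of the others, and a log2 change measured on the 2 scales may differ in size for that reason, which was not tested. The summed level of 7 skeletal muscle fibre markers ran from 41504 to 42234 in WB and 41706 to 42798 in HU muscle of wild type mice. In Nfkb1-/- mice it ran from 41838 to 42431 in WB and from 40412 to 40881 in HU muscle, so that all HU sums were lower, and its part in the collagen values of that genotype was not tested. Of these markers, 0 of the 7 were called in any genotype by limma (at an unadjusted p under 0.05, 0, 1 and 1 were lower in wild type, Nfkb1-/- and Bcl3-/- mice). At that unadjusted p, 8.33%, 13.7% and 9.53% of all genes were lower. The share of all genes called lower was 1.75%, 7.02% and 2.99%, and the share called higher 2.18%, 5.22% and 7.5%. In such whole-muscle samples, fewer cells of a type and less RNA per cell cannot be told apart.

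Collagen genes were called lower with unloading in all 3 genotypes, few in wild type and more in each knockout. A gene was called when the limma fit to all 24 arrays gave a Benjamini-Hochberg adjusted p under 0.05 over all 19294 probe sets tested. Of the 36 collagen genes, all of which had a tested probe set, 2 were called lower and 1 higher in wild type, where 1.75% of all genes tested were called lower and 2.18% higher. The Nfkb1-/- mice had 13 called lower and 0 higher, against 7.02% and 5.22% of all genes. The Bcl3-/- mice had 17 called lower and 0 higher, against 2.99% and 7.5%. In the mean of the 3 genotypes 19 were called lower and 1 higher, against 9.2% and 12.6%. The median log2 change over the 36 genes was -0.20 for wild type, -0.40 for Nfkb1-/- and -0.49 for Bcl3-/- mice, beside -0.01, -0.00 and 0.01 over all genes. Counting only genes whose 4 HU arrays all lay on 1 side of the 4 WB arrays, 6, 16 and 13 collagen genes were lower in wild type, Nfkb1-/- and Bcl3-/- mice, where 4.94%, 11.6% and 4.32% of all genes were, and 0, 2 and 0 were higher, where 5.66%, 8.19% and 11.4% of all genes were. The 2 knockouts share no arrays, but the fit to all 24 arrays gives both the same estimate of each gene's spread. In that fit 11 collagen genes were called lower in both, which is 84.6% of the Nfkb1-/- list and 64.7% of the Bcl3-/- list. Over all genes 120 were called lower in both, or 15.4% of 779 and 36.1% of 332.

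The calls depended on the test and on single arrays. At an unadjusted p under 0.05 by limma, 8 collagen genes were lower and 2 higher in wild type (8.33% and 9.69% of all genes), 21 and 1 in Nfkb1-/- mice (13.7% and 11.5%) and 21 and 1 in Bcl3-/- mice (9.53% and 16.5%). By the methods' t-test with Benjamini-Hochberg adjustment 0 collagen genes passed for any genotype. Few genes of any kind passed that test. Of the 11098 genes tested, 0 passed in wild type, 148 lower and 43 higher in Nfkb1-/-, and 8 lower and 44 higher in Bcl3-/- mice. At an unadjusted p under 0.05 that test took 11 lower and 1 higher in wild type (6.43% and 6.69% of all genes), 15 and 2 in Nfkb1-/- mice (13% and 9.46%) and 18 and 1 in Bcl3-/- mice (5.2% and 12.5%). Without Nfkb1-/- HU replicate 2 the 13 calls of that genotype became 8, and without Bcl3-/- WB replicate 1 the 17 became 11. When each array of a genotype was left out in turn, all 3 wild type calls were lost at least once, as were 6 of the 13 Nfkb1-/- calls and 6 of the 17 Bcl3-/- calls. With 16 added to each intensity before the log2, which shrinks changes of dim probe sets, the Nfkb1-/- calls of Col4a1, Col4a5, Col11a2, Col15a1 and Col18a1 were lost, at adjusted p of 0.0523 to 0.437. Of the 36 genes, 15 were under an intensity of 20 on all 16 wild type and Nfkb1-/- arrays. Of the 19 genes above 20 on at least 4 of those arrays, 1 was called lower for wild type, 10 for Nfkb1-/- and 14 for Bcl3-/- mice. A probe set was tested when it exceeded 20 on at least 4 of the 24 arrays. The genes outside these 19 therefore passed only with the Bcl3-/- arrays, on their higher scale, counted. Among them are Col9a1, called lower in wild type, and Col4a5, Col11a2 and Col18a1, called lower in Nfkb1-/- mice.

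Over all collagen genes tested, the median decrease in every genotype was deepest for fibrillar genes, then basement membrane genes, then the other types. Many genes of the other types were under 20 on all 16 wild type and Nfkb1-/- arrays. With the filter within each run, which tests fewer genes, the Nfkb1-/- medians were -0.48 for basement membrane genes and -0.42 for other types. The distance between these classes thus depended on the filter. All 9 fibrillar genes had a negative log2 change in every genotype, with medians of -0.42 for wild type, -0.84 for Nfkb1-/- and -0.85 for Bcl3-/- mice, and 1, 6 and 8 of the 9 were called lower. The 8 basement membrane genes (type IV, XV and XVIII) had medians of -0.27, -0.43 and -0.38, with 0, 4 and 4 called lower. The 19 genes of other types had medians of -0.09, -0.06 and -0.19, with 1, 3 and 5 called lower. Among these other types, the 3 genes of type VI had medians of -0.37, -0.99 and -0.95 and 0, 3 and 3 of them were called lower. Beside these class counts, 1.75%, 7.02% and 2.99% of all genes were called lower, with medians of -0.01, -0.00 and 0.01.

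**Figure D1:**
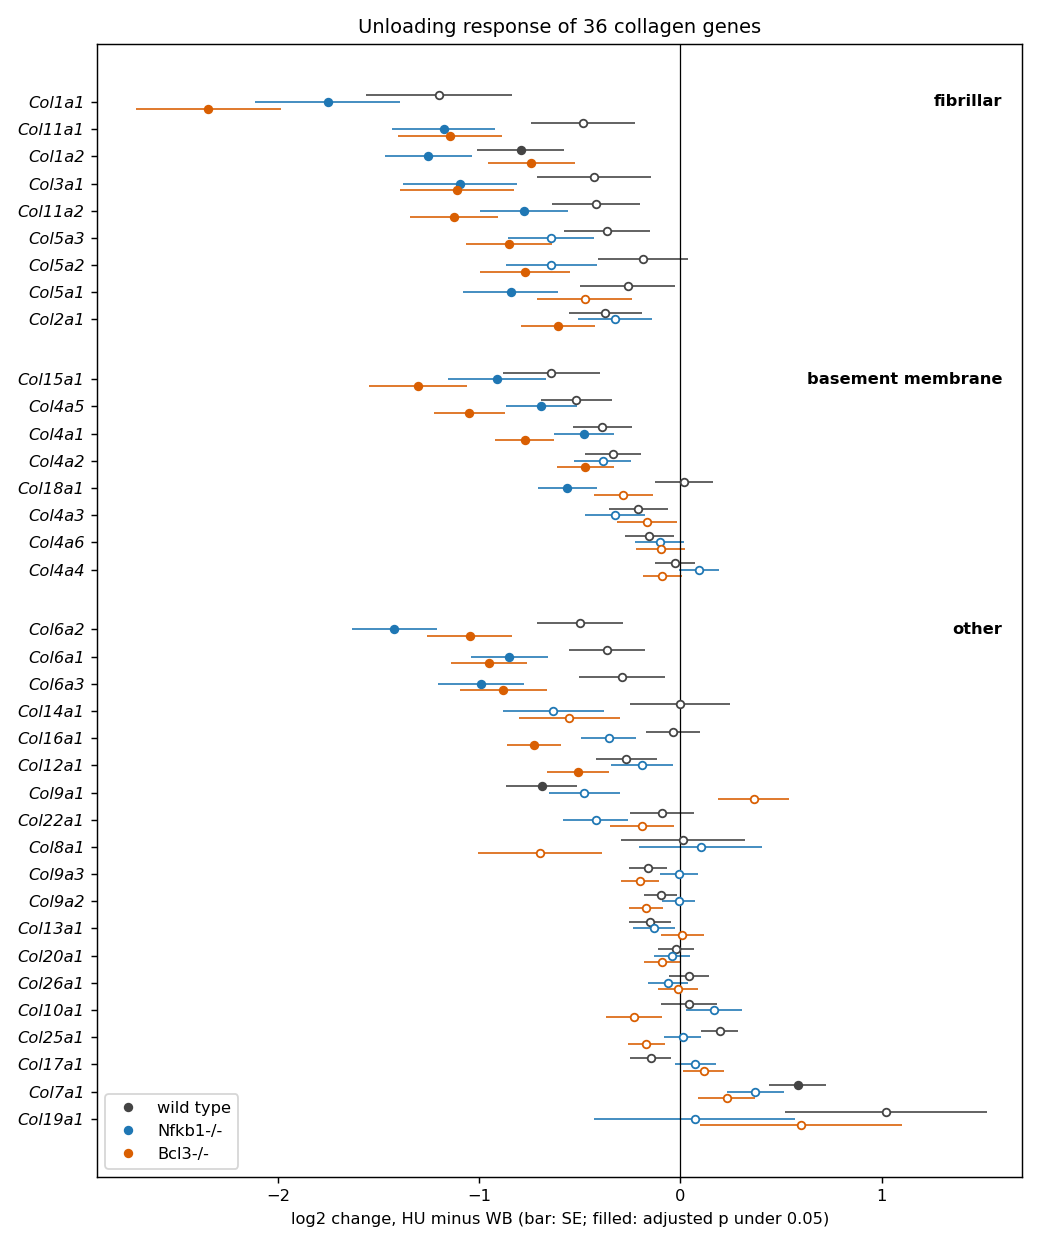
Log2 change with unloading (x axis, HU minus WB) for each of the 36 collagen genes (y axis) in wild type, Nfkb1-/- and Bcl3-/- mice. Points are limma estimates from 4 arrays per group, bars are SE and filled points have an adjusted p under 0.05. The fibrillar genes all lie left of 0, the type VI genes have the lowest values of the other types in both knockouts, and Col7a1 lies right of 0 in every genotype.

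Arrays of one group differed in the level of the whole class. The mean log2 level of the 9 fibrillar genes, relative to the WB mean of the same genotype, was -0.48, -0.33, -0.52 and -0.68 on HU replicates 1 to 4 of wild type. It was -0.86, -1.67, -0.85 and -0.41 on those of Nfkb1-/- and -0.95, -1.31, -1.23 and -0.59 on those of Bcl3-/- mice. The HU arrays lay below the lowest WB array in all 3 genotypes, where the lowest WB values were -0.11, -0.25 and -0.44. Nfkb1-/- HU replicate 2 stood lowest of all arrays for the fibrillar genes and also for basement membrane genes at -0.65, whereas Nfkb1-/- HU replicate 4 and Bcl3-/- HU replicate 4 were the highest HU arrays of their groups for the fibrillar genes. Bcl3-/- WB replicate 4 was the lowest WB array. Over all genes tested the same means stayed between -0.07 and 0.05.

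**Figure D2:**
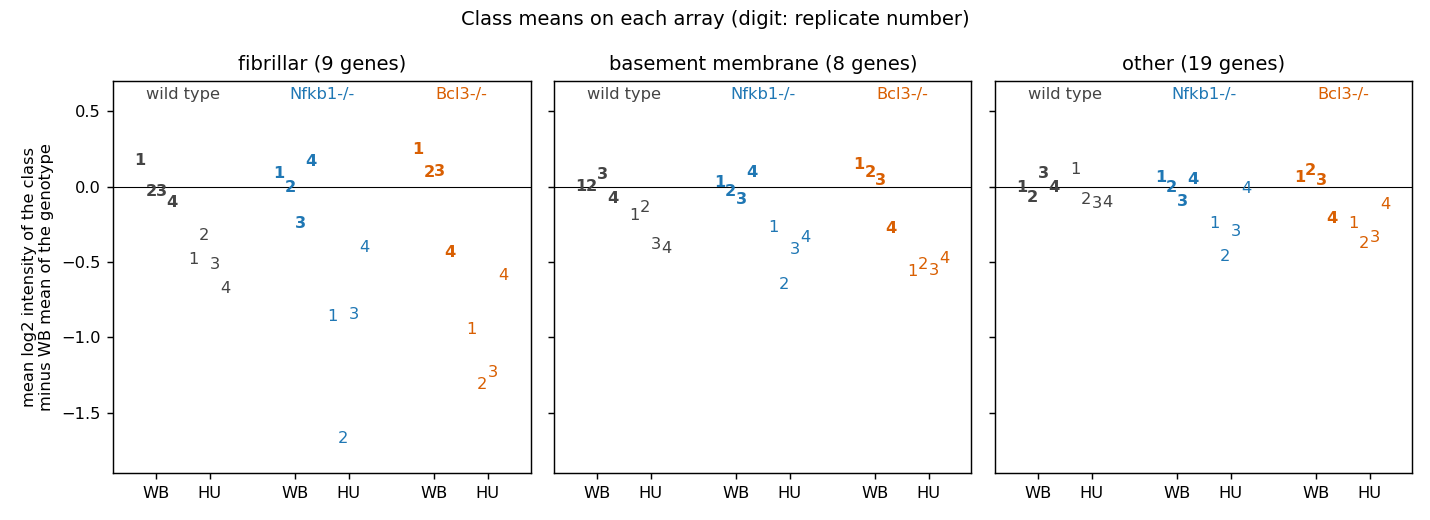
Mean log2 intensity of each collagen class on each array, minus the WB mean of the same genotype (y axis), for WB and HU arrays of the 3 genotypes (x axis). Digits are replicate numbers, bold for WB. For the fibrillar genes every HU array lies below every WB array of its genotype, and Nfkb1-/- HU replicate 2 is lowest at -1.67.

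The start regions of 5 genes that were called lower in both knockouts are shown. They had the largest decreases in the mean of the 3 genotypes among the genes called in both knockouts that had a promoter to print, with mean decreases of 1.84-fold to 1.99-fold. Of the 36 genes, 27 had a promoter in the RefSeq table used (GRCm38.p6). Each line gives the 250 bases before the annotated start, 5′ to 3′ on the gene's own strand. Capitals mark the CCAAT box, the TATA box TATAAA or the GC box GGGCGG, searched on both strands, and the NF-kB consensus, which has no match in these 5.
Col1a2, chr6:4505368-4505617, plus strand: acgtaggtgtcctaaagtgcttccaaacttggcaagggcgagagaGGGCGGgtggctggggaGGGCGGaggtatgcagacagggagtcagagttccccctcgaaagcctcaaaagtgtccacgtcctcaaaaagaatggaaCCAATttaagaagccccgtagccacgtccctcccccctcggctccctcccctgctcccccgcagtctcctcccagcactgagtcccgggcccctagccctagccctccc
Col3a1, chr1:45311288-45311537, plus strand: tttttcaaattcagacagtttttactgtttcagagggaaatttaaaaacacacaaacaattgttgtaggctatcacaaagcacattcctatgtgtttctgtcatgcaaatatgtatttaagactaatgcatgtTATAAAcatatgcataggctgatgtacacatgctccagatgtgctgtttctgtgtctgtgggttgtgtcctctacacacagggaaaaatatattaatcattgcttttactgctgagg
Col11a1, chr3:114030290-114030539, plus strand: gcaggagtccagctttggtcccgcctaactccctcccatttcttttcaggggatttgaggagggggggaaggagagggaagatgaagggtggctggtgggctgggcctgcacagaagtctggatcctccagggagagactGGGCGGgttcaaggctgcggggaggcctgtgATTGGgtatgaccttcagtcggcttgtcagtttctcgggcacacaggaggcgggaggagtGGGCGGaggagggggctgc
Col15a1, chr4:47207762-47208011, plus strand: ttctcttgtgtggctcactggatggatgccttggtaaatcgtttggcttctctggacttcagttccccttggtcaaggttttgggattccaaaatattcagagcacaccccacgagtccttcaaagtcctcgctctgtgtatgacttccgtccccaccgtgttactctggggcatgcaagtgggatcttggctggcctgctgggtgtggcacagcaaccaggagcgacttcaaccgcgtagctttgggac
Col6a2, chr10:76623631-76623880, minus strand: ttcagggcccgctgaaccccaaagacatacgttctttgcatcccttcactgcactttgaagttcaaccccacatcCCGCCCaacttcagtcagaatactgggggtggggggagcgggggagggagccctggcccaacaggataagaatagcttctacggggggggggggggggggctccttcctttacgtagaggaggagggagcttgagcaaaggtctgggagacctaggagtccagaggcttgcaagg

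In Col1a2 CCAAT lies at -109 to -105 and GGGCGG at -205 to -200 and -188 to -183, counted from the base before the start as -1. Col11a1 holds the reverse complement of CCAAT at -79 to -75 and GGGCGG at -110 to -105 and -19 to -14. Col3a1 has TATAAA at -117 to -112 only, Col6a2 has the reverse complement of GGGCGG at -175 to -170 only, and Col15a1 has none of the 4 motifs in this window. Of the 27 collagen promoters 11 held CCAAT (40.7%, against 34.5% of 27025 genes), 5 held TATAAA (18.5% against 13%), 15 held GGGCGG (55.6% against 33%) and 1, that of Col9a2, held the NF-kB consensus (3.7% against 3.74%). These shares describe the letters in a short window. None of these motifs was common to all 5 genes, which were chosen for their decreases. The part of any motif in the changes was not tested.

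Type I collagen, the main fibre-forming collagen of muscle connective tissue and tendon, is a trimer of the products of Col1a1 (chromosome 11, 94936224 to 94953042) and Col1a2. The intensity of Col1a1 was 1409.8, 1065, 1007 and 940.1 on the wild type WB arrays and 453, 545, 449.6 and 459 on the HU arrays. All 4 HU arrays were below all 4 WB arrays, and the level fell short of a call in the shared fit (2.30-fold, log2 change -1.20, SE 0.36, adjusted p = 0.0614). In a limma fit of the wild type arrays alone the adjusted p was 0.00223. Nfkb1-/- mice had a Col1a1 level of 1033, 956, 830.0 and 1129 in WB and 357, 109, 384 and 477 in HU muscle. Every HU array was lower than every WB array, with replicate 2 furthest down, and the decrease of 3.37-fold was called (log2 change -1.75, SE 0.36, adjusted p = 0.00247). Col1a1 in Bcl3-/- mice was 7239, 9284, 4447 and 2519.8 in WB and 1013, 782, 802 and 1772 in HU muscle. The groups did not overlap although WB replicate 4 and HU replicate 4 came close, and Col1a1 had the largest decrease of the 36 genes there, 5.09-fold (log2 change -2.35, SE 0.36, adjusted p = 0.000374).

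The other tested probe set of Col1a1 did not follow in the first 2 genotypes. Its log2 changes were 0.11 (adjusted p = 0.875) for wild type, -0.18 (adjusted p = 0.76) for Nfkb1-/- and -1.70 (adjusted p = 0.00029) for Bcl3-/- mice. It read 53.7, 63.5, 57.8 and 47.8 on wild type WB arrays but 6884, 7452, 7739 and 5507 on those of Bcl3-/- mice, a ratio of 124 where the next highest ratio of any collagen probe set was 16.6. It was called in the wild type minus Bcl3-/- difference at 1.81 (adjusted p = 0.0158), and no gene-level count uses it.

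Col1a2 was 1 of the 2 collagen genes called lower in wild type. Its intensity was 2583, 2144, 2318 and 2311 in WB and 1233, 1430.2, 1385 and 1341 in HU muscle of wild type mice. The HU arrays lay in a narrow band well under the WB arrays (1.73-fold, log2 change -0.79, SE 0.22, adjusted p = 0.0368). For Nfkb1-/- mice the HU values were 991, 443, 1107 and 1411 against 2230.4, 2114, 1964 and 2392 in WB. All HU arrays were lower and replicate 2 was again the lowest (2.38-fold, log2 change -1.25, SE 0.22, adjusted p = 0.000712). The Bcl3-/- HU values of 7558, 5827, 6271 and 10062 stood against 12958, 12172, 12856 and 10709 in WB. These groups did not overlap either, with HU replicate 4 just under the lowest WB array (1.67-fold, log2 change -0.74, SE 0.22, adjusted p = 0.0303). That call was lost without any of HU or WB replicates 1 to 3 (adjusted p = 0.0517 to 0.0897) and with a trend and robust variance (adjusted p = 0.0513). The wild type call was lost when any of WB replicates 1 to 4 or HU replicates 1, 3 or 4 was left out, at adjusted p of 0.0635 to 0.0915.

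Type III collagen, encoded by Col3a1, runs in thin fibres with type I in the endomysium. Col3a1 was 1924, 1861, 1569 and 1435 in WB and 1728, 1554, 1021 and 894 in HU muscle of wild type mice. HU replicates 1 and 2 lay among the WB arrays and the change was not called (log2 change -0.43, SE 0.28, adjusted p = 0.469). The Nfkb1-/- HU arrays read 1069, 443, 929.5 and 1837 against 2343, 1914, 1715 and 2195 in WB. Replicate 4 reached into the WB range, replicate 2 was lowest, and the decrease was called (2.14-fold, log2 change -1.10, SE 0.28, adjusted p = 0.0129) but not without replicate 2, at a log2 change of -0.73, nor in a fit of the Nfkb1-/- arrays alone (adjusted p = 0.0538). The Bcl3-/- HU values were 3919.7, 3123, 3591 and 5779.6 and the WB values 9996, 7740.3, 10318 and 6939. The groups were apart and the decrease was called (2.16-fold, log2 change -1.11, SE 0.28, adjusted p = 0.0146).

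**Figure D3:**
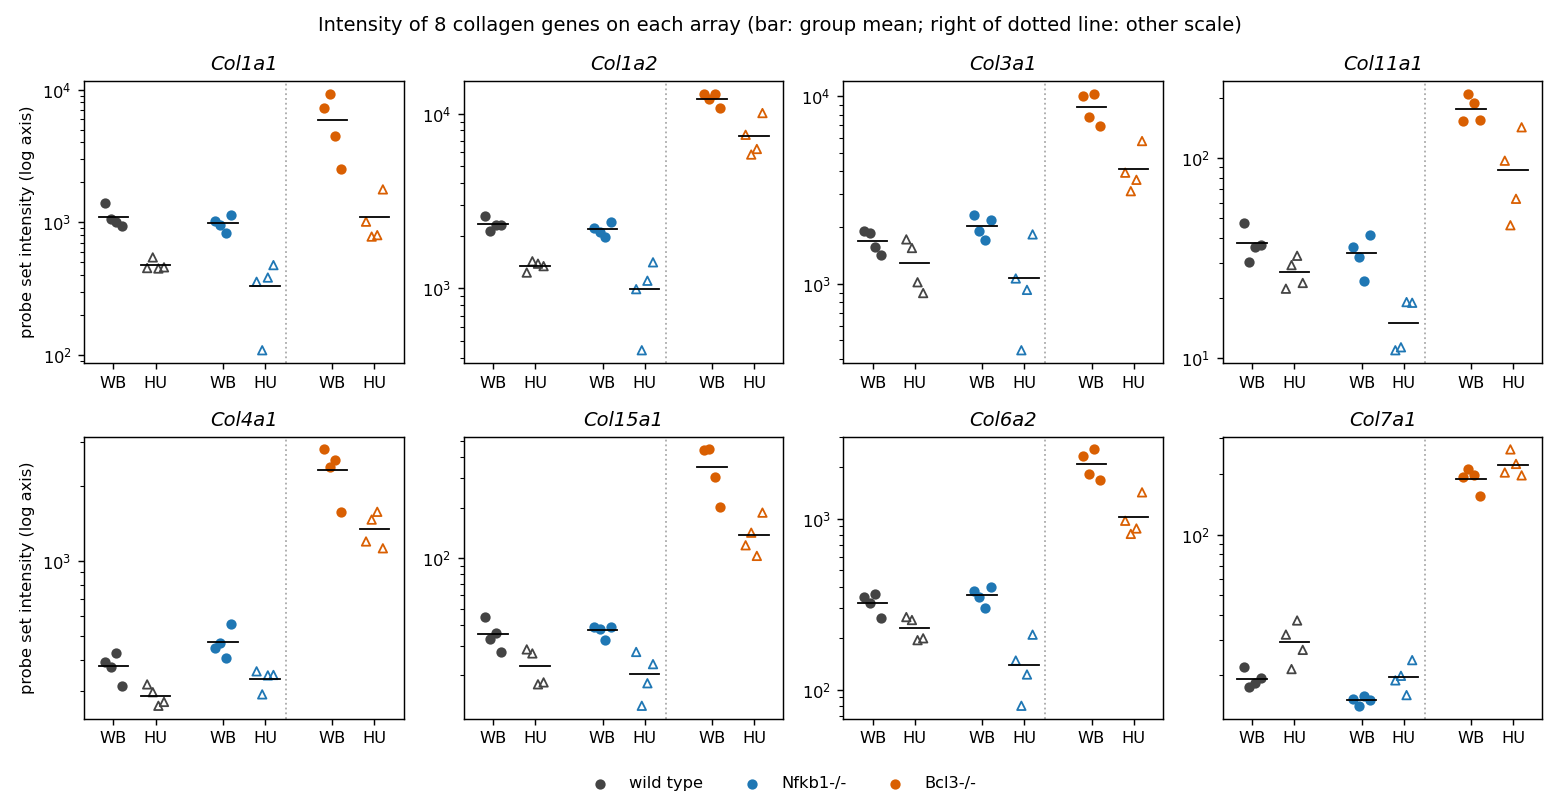
Deposited intensity (y axis, log scale) of 8 collagen genes on each of the 24 arrays, by genotype and WB (filled circles) or HU (open triangles), with bars at group means. Values right of the dotted line are on the other scale of the Bcl3-/- arrays. Col1a1 and Col1a2 do not overlap between WB and HU in any genotype, and Col7a1 is the 1 panel with higher HU means.

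Type V and type XI collagens sit in the core of type I and II fibrils and set their width. Col5a1, which encodes a type V chain, was called lower in Nfkb1-/- mice at -0.84 (SE 0.24, adjusted p = 0.0207) and had -0.26 (SE 0.24, adjusted p = 0.628) in wild type and -0.48 (SE 0.24, adjusted p = 0.202) in Bcl3-/- mice. Its Nfkb1-/- HU arrays read 70.7, 37.8, 57.5 and 123 against 130.3, 118, 99.9 and 128 in WB, so that replicate 4 lay inside the WB range. Without HU replicate 2 the call was lost, at a log2 change of -0.58, and it was lost too without HU replicate 3 or WB replicate 1 or 4 (adjusted p = 0.0608 to 0.103 over these 4) and in a fit of the Nfkb1-/- arrays alone (adjusted p = 0.0742). Col5a2 and Col5a3, which encode other chains of type V, were called in Bcl3-/- mice at -0.77 (SE 0.22, adjusted p = 0.0297) and -0.85 (SE 0.21, adjusted p = 0.0128). The Col5a2 call was lost without any of HU or WB replicates 1 to 3 (adjusted p = 0.0613 to 0.0872), and that of Col5a3 without WB replicate 1 (adjusted p = 0.0525) and in a fit of the Bcl3-/- arrays alone (adjusted p = 0.0616). Their log2 changes in Nfkb1-/- mice were -0.64 (adjusted p = 0.0664) and -0.64 (adjusted p = 0.0506), and in wild type -0.18 (adjusted p = 0.738) and -0.36 (adjusted p = 0.393).

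Col11a1 encodes a chain of type XI, which is best known from cartilage and tendon. Its intensity in Nfkb1-/- mice was 35.97, 31.9, 24.2 and 41.3 in WB and 10.9, 11.3, 18.98 and 18.8 in HU muscle. Bcl3-/- mice read 154, 211, 191 and 156 in WB and 97.3, 46.2, 62.7 and 143 in HU muscle. No HU array reached a WB array in either knockout, and both decreases were called (2.26-fold, log2 change -1.18, SE 0.26, adjusted p = 0.00391, and 2.21-fold, log2 change -1.14, SE 0.26, adjusted p = 0.00689). In wild type, where the HU values of 22.2, 29.1, 32.4 and 23.7 overlapped the WB values of 47.6, 30.2, 36.03 and 36.8, the log2 change was -0.49 (adjusted p = 0.336). Its partner Col11a2 was called at -0.78 (SE 0.22, adjusted p = 0.0214) in Nfkb1-/- mice, where it was under 20 on every array, and at -1.12 (SE 0.22, adjusted p = 0.00247) in Bcl3-/- mice. The Nfkb1-/- call was lost without HU replicate 2 or 4 or WB replicate 1 or 4 (adjusted p = 0.0516 to 0.0823), and with 16 added to each intensity the change was -0.27. Col2a1, the main fibrillar collagen of cartilage, was also under 20 on all wild type and Nfkb1-/- arrays. It had -0.37 (adjusted p = 0.283) and -0.33 (adjusted p = 0.288) there and was called in Bcl3-/- mice at -0.61 (SE 0.18, adjusted p = 0.0346), a call lost in a fit of the Bcl3-/- arrays alone (adjusted p = 0.142) and without HU replicate 2 or 3 or WB replicate 1 or 2 (adjusted p = 0.0787 to 0.136).

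In the basement membrane class, Col4a1 and Col4a2 encode the chains of the common type IV network around muscle fibres and capillaries, and their annotated starts lie 21 bases apart on opposite strands of chromosome 8. Col4a1 was 393, 376, 429 and 316 in WB and 319.7, 298, 262 and 272 in HU muscle of wild type mice. Only HU replicate 1 reached the WB range, and the change was not called (log2 change -0.39, SE 0.15, adjusted p = 0.142). For Nfkb1-/- mice the values were 449, 470.2, 408 and 560.3 in WB and 361, 292, 347 and 349 in HU muscle. They did not overlap (1.39-fold, log2 change -0.48, SE 0.15, adjusted p = 0.0348), and the call was lost without HU replicate 2 or 3 or WB replicate 1, 2 or 4 (adjusted p = 0.0595 to 0.137). For Bcl3-/- mice they were 2795, 2373, 2533 and 1566 in WB and 1195, 1463, 1572 and 1122 in HU muscle. WB replicate 4 lay within the HU range and the decrease was called (1.71-fold, log2 change -0.77, SE 0.15, adjusted p = 0.0021).

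Col4a2 was 241, 261, 254 and 219 on the wild type WB arrays and 211, 198, 166 and 199 on the HU arrays. The groups were apart but narrow in their distance, without a call (log2 change -0.34, SE 0.14, adjusted p = 0.198). It had -0.39 (SE 0.14, adjusted p = 0.0796) in Nfkb1-/- mice, where the groups were also apart, and was called at -0.47 (SE 0.14, adjusted p = 0.0336) in Bcl3-/- mice. That call was lost in a fit of the Bcl3-/- arrays alone (adjusted p = 0.148) and without HU replicate 1 or 4 or WB replicate 1 or 3 (adjusted p = 0.0876 to 0.121). Col4a5, on chromosome X, encodes a chain found in the basement membranes of kidney and smooth muscle. It was called at -0.69 (SE 0.18, adjusted p = 0.012) and -1.05 (SE 0.18, adjusted p = 0.00082) in the 2 knockouts and had -0.52 (SE 0.18, adjusted p = 0.102) in wild type, at intensities of 8.74 to 25.4 on the wild type and Nfkb1-/- arrays, and the Nfkb1-/- call was lost without WB replicate 1 (adjusted p = 0.0562). Col4a3, Col4a4 and Col4a6, which encode the other chains of type IV, had log2 changes between -0.32 and 0.09 without a call.

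Types XV and XVIII are proteoglycan collagens at the outer face of the basement membrane, and the C-terminal part of type XVIII is the angiogenesis inhibitor endostatin. Col15a1 read 44.8, 32.9, 35.9 and 27.4 in WB and 28.5, 26.96, 17.6 and 18.1 in HU muscle of wild type mice. HU replicate 1 was above the lowest WB array and the change was not called (log2 change -0.64, SE 0.24, adjusted p = 0.143). In Nfkb1-/- mice it read 39.02, 37.9, 32.6 and 39.02 in WB and 27.5, 13.1, 17.9 and 23.3 in HU muscle. No HU array reached the WB arrays (1.88-fold, log2 change -0.91, SE 0.24, adjusted p = 0.0155), and without HU replicate 2 the call was lost. In Bcl3-/- mice it read 444, 447, 304 and 202 in WB and 119, 142, 103 and 187 in HU muscle. The 2 groups were apart, with the highest HU array close to WB replicate 4 (2.47-fold, log2 change -1.30, SE 0.24, adjusted p = 0.00179). Col18a1 was called in Nfkb1-/- mice alone, at -0.56 (SE 0.15, adjusted p = 0.0128), with 0.02 (SE 0.15, adjusted p = 0.97) in wild type and -0.28 (SE 0.15, adjusted p = 0.218) in Bcl3-/- mice. Its values were 16.4, 18.6, 15.9 and 19.1 in WB and 11.8, 10.9, 11.02 and 13.6 in HU muscle of Nfkb1-/- mice, so that all HU arrays were lower. Its second probe set was called lower in both knockouts, at -0.53 and -0.65.

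The 3 type VI genes had the largest decreases of the other types in both knockouts, and in Nfkb1-/- mice Col6a2 had the second largest decrease of the 36 collagen genes. Type VI is a heterotrimer of the products of Col6a1, Col6a2 and Col6a3, and Col6a1 (76708792 to 76726044) and Col6a2 (76595756 to 76623630) lie near each other on chromosome 10. In wild type mice Col6a2 was 347, 320.4, 360.4 and 262 in WB and 266, 255, 195 and 199.5 in HU muscle. HU replicate 1 alone came above the lowest WB array, and the change was not called (log2 change -0.50, SE 0.21, adjusted p = 0.204). In Nfkb1-/- mice Col6a2 was 379.7, 348, 299 and 399 in WB and 148, 80.4, 123 and 209.6 in HU muscle. The HU arrays were all far lower (2.68-fold, log2 change -1.42, SE 0.21, adjusted p = 0.000197). It was, in Bcl3-/- mice, 2327, 1824, 2542 and 1677 in WB and 972, 815, 876 and 1425 in HU muscle. Again the groups were apart (2.07-fold, log2 change -1.05, SE 0.21, adjusted p = 0.00329).

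Col6a1 was called at -0.85 (SE 0.19, adjusted p = 0.00446) in Nfkb1-/- and -0.95 (SE 0.19, adjusted p = 0.00294) in Bcl3-/- mice, without overlap between WB and HU arrays in any of the 3 genotypes. Its wild type values were 360.2, 329.9, 380.3 and 289.5 in WB and 274, 274, 252 and 251 in HU muscle, a separation without a call (log2 change -0.37, SE 0.19, adjusted p = 0.32). Col6a3 was called at -0.99 (SE 0.21, adjusted p = 0.00355) and -0.88 (SE 0.21, adjusted p = 0.011), and had -0.29 (SE 0.21, adjusted p = 0.53) in wild type, where HU replicates 1 and 2 (315, 307, 198 and 217 on HU replicates 1 to 4) lay within the WB values of 305, 311, 354 and 278. All 3 chains were called lower in both knockouts and none was called in wild type.

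Of the fibril-associated collagens with interrupted helices, which sit on the surface of fibrils, Col16a1 and Col12a1 were called lower in Bcl3-/- mice. Col16a1 read 257, 391, 228 and 196 in WB and 151, 146, 155 and 175 in HU muscle. The groups were apart (1.65-fold, log2 change -0.73, SE 0.13, adjusted p = 0.00173). It had -0.04 (SE 0.13, adjusted p = 0.928) in wild type and -0.36 (SE 0.13, adjusted p = 0.0895) in Nfkb1-/- mice, where the groups were apart too. Col12a1 was called at -0.51 (SE 0.15, adjusted p = 0.0336) in Bcl3-/- mice with 1 of the WB arrays inside the HU range, and had -0.27 (adjusted p = 0.375) and -0.19 (adjusted p = 0.503) in the others. The call was lost in a fit of the Bcl3-/- arrays alone (adjusted p = 0.0611) and without HU replicate 1, 2 or 3 or WB replicate 1 or 2 (adjusted p = 0.0735 to 0.11).

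Col9a1, a chain of type IX of cartilage fibrils, was the other gene called lower in wild type, at -0.69 (SE 0.18, adjusted p = 0.0254). It was under 20 on all wild type and Nfkb1-/- arrays, at 10.03, 12.1, 15.1 and 16.5 in WB and 6.92, 10.5, 7.22 and 8.53 in HU muscle of wild type mice. HU replicate 2 overlapped the WB arrays. With 16 added to each intensity before the log2, the change was -0.27 and the call was lost. It was lost too in a fit of the wild type arrays alone (adjusted p = 0.0762) and without HU replicate 1, 3 or 4 or WB replicate 3 or 4 (adjusted p = 0.0542 to 0.0958). The Bcl3-/- change was 0.36 (SE 0.18, adjusted p = 0.191), and in Nfkb1-/- mice -0.48 (SE 0.18, adjusted p = 0.083). Its second probe set had -0.30, -0.06 and -0.30 in wild type, Nfkb1-/- and Bcl3-/- mice, none of them called.

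Col7a1, which encodes the anchoring fibril collagen that ties basement membranes to the matrix beneath and is best known from skin, was the 1 collagen gene called higher. In wild type mice it read 21.9, 17.4, 18.3 and 19.5 in WB and 31.8, 21.5, 37.4 and 26.7 in HU muscle. Only HU replicate 2 lay below the highest WB array (1.50-fold, log2 change 0.58, SE 0.14, adjusted p = 0.0198). In Nfkb1-/- mice it read 15.2, 14.1, 15.7 and 15.1 in WB and 18.9, 19.9, 15.9 and 23.8 in HU muscle. All 4 HU arrays were above all WB arrays, without a call (log2 change 0.37, SE 0.14, adjusted p = 0.0937). It had 0.23 (SE 0.14, adjusted p = 0.32) in Bcl3-/- mice. In the mean of the 3 genotypes Col7a1 was called higher at 0.40 (SE 0.08, adjusted p = 0.00112), although the wild type call was lost without WB replicate 2 or 3 or HU replicate 1 or 3 and in a fit of the wild type arrays alone (adjusted p = 0.0894).

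The 15 other collagen genes had no call in any genotype. They were Col10a1, Col13a1, Col14a1, Col17a1, Col19a1, Col20a1, Col22a1, Col25a1, Col26a1, Col4a3, Col4a4, Col4a6, Col8a1, Col9a2 and Col9a3. Their log2 changes ran from -0.21 to 1.02 in wild type, from -0.63 to 0.17 in Nfkb1-/- and from -0.70 to 0.60 in Bcl3-/- mice. The value of 1.02 is that of Col19a1, whose wild type HU arrays read 124, 6.13, 10.5 and 14.9, so that replicate 1 alone carried it. Of the 58 probe sets 4 did not reach an intensity of 20 on 4 arrays and were not tested, and each belongs to a gene with another probe set that was. By probe set, 2 of 54 were called lower in wild type, where 1.66% of all probe sets were. The same count was 21 in Nfkb1-/- mice, beside 6.59%, and 28 in Bcl3-/- mice, beside 2.81%. For 16 genes with more than 1 tested probe set, a probe set other than the one used had decreases called in both knockouts for Col11a1, Col18a1, Col1a2, Col3a1, Col5a1, Col5a2 and Col6a2.

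The design also asks whether the response differed between genotypes, and a positive difference here means that the knockout had the more negative change. The wild type response minus that of Nfkb1-/- mice was positive for 25 of the 36 collagen genes with a median of 0.20, and 0 were called (limma, 0.207% of all genes called in either direction). At an unadjusted p under 0.05, 3 were positive and 0 negative, against 6.91% and 5.36% of all genes. These were Col6a2 (0.92, 95% interval 0.30 to 1.54, adjusted p = 0.195), Col6a3 (0.70, 0.07 to 1.33, adjusted p = 0.347) and Col18a1 (0.58, 0.16 to 1.00, adjusted p = 0.245). For Col1a1 the difference was 0.55 with a 95% interval of -0.50 to 1.61.

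The wild type response minus that of Bcl3-/- mice was positive for 30 of 36 with a median of 0.33, and 1 gene was called, beside 1.17% of all genes in either direction. That gene was Col9a1 at -1.05 (SE 0.25, adjusted p = 0.0369), opposite in sign to the 30. This call was kept in 14 of 28 alternative settings and lost in the others, among them the fit of only the groups compared (adjusted p = 0.0881), log2 of the intensity plus 16 (adjusted p = 0.0609) and 10 of 16 single arrays left out (adjusted p = 0.0527 to 0.0977), and the second probe set of Col9a1 had -0.30 in wild type as in Bcl3-/- mice. At an unadjusted p under 0.05, 6 were positive and 1 negative, against 4.8% and 8.55% of all genes. The 6 were Col16a1 (0.69, adjusted p = 0.0825), Col1a1 (1.15, adjusted p = 0.321), Col25a1, Col11a2, Col6a1 and Col4a5, with adjusted p from 0.0825 to 0.351 over the 6. The intervals of these differences are wide: that of Col1a1 ran from 0.09 to 2.20. Both comparisons use the same wild type arrays. A larger decrease in Bcl3-/- than in wild type mice was not called in this fit for the probe set that represents any collagen gene. It was called under some alternatives, for Col16a1 in 7 (adjusted p = 0.0154 to 0.0472), for Col1a1 with both arrays that stand apart left out, which are Nfkb1-/- HU replicate 2 and Bcl3-/- WB replicate 4 (adjusted p = 0.0271), and for Col4a5 with log2 of the intensity plus 16 (adjusted p = 0.0375).

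Before unloading, Nfkb1-/- and wild type mice had no called difference in a collagen gene (0 of 36 by limma, where 0.856% of all genes were called in either direction). At an unadjusted p under 0.05, 1 gene was higher and 2 were lower in Nfkb1-/- muscle, against 3.98% and 3.8% of all genes. These were Col4a1 at 0.32 (adjusted p = 0.597), Col12a1 at -0.43 (adjusted p = 0.308) and Col7a1 at -0.36 (adjusted p = 0.461). In WB muscle Col1a1 had 1106 ± 209 (SD, n = 4) in wild type and 987 ± 126 in Nfkb1-/- mice, and Col3a1 had 1697 ± 233 and 2042 ± 281.

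Some genes whose products make and finish collagen molecules were called lower too. The shares of all genes called lower were 1.75%, 7.02% and 2.99% in wild type, Nfkb1-/- and Bcl3-/- mice. Those called higher were 2.18%, 5.22% and 7.5%. Among 12 measured genes of collagen modification and folding, 1, 3 and 3 were called lower in wild type, Nfkb1-/- and Bcl3-/- mice and 0 higher, with medians of -0.16, -0.23 and -0.25. Serpinh1, the collagen chaperone Hsp47, was called at -1.21 (SE 0.23, adjusted p = 0.00118) in Nfkb1-/- and -1.25 (SE 0.23, adjusted p = 0.00147) in Bcl3-/- mice. P4ha1, a subunit of prolyl 4-hydroxylase, was called at -0.49 (SE 0.14, adjusted p = 0.0443) in wild type and -0.65 (SE 0.14, adjusted p = 0.00304) in Nfkb1-/- mice. Crtap, a part of the prolyl 3-hydroxylation complex, was called in both knockouts (-0.63 and -0.61) and Plod1, a lysyl hydroxylase, in Bcl3-/- mice (-0.44). Of 8 genes for procollagen processing and cross-linking, 0, 1 and 3 were called lower and 0 higher, with medians of -0.12, -0.15 and -0.48. Pcolce, an enhancer of the procollagen C-proteinase, was called at -1.02 (SE 0.20, adjusted p = 0.00174) and -0.76 (SE 0.20, adjusted p = 0.0187). The proteinase itself, Bmp1 (-0.57), and the lysyl oxidase Loxl3 (-0.62) were called in Bcl3-/- mice.

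Proteins bound to collagen fibrils or to the basement membrane moved in part. For comparison, 1.75%, 7.02% and 2.99% of all genes were called lower in wild type, Nfkb1-/- and Bcl3-/- mice, and 2.18%, 5.22% and 7.5% higher. Of 23 genes for fibril-associated proteins, 2, 6 and 6 were called lower and 0, 1 and 0 higher, with medians of -0.10, -0.19 and -0.41. Sparc, a collagen-binding matricellular protein, was called lower at -0.67 (SE 0.16, adjusted p = 0.0186) in wild type, -0.81 in Nfkb1-/- mice and -0.67 in Bcl3-/- mice. Comp, which binds fibrils of tendon and cartilage, was called in all 3 as well (-0.55, -0.56 and -0.73). Of the small leucine-rich proteoglycans, Kera was called in Nfkb1-/- mice (-1.29) and Lum in both knockouts (-0.74 and -0.65). The microfibril protein Mfap4 was called in both knockouts (-0.97 and -1.22), and fibronectin, Fn1, was called in Bcl3-/- mice (-0.88). Of 17 basement membrane partners 0, 3 and 3 were called lower and 0 higher, with medians of -0.08, -0.04 and -0.15. Nid1, the nidogen that links laminin to type IV collagen, was called in both knockouts (-0.69 and -0.59), Nid2 (-0.84) and the laminin chain Lamb1 (-0.47) in Nfkb1-/- mice, and Lamc1 (-0.44) and perlecan, Hspg2 (-0.40), in Bcl3-/- mice.

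Genes of collagen breakdown did not move as a block. Among all genes, 1.75%, 7.02% and 2.99% were called lower in wild type, Nfkb1-/- and Bcl3-/- mice, and 2.18%, 5.22% and 7.5% higher. Of 15 measured genes 0, 1 and 2 were called lower and 0, 1 and 2 higher, with medians of -0.10, 0.05 and -0.19. Mmp11, a matrix metalloproteinase, was called higher in both knockouts (0.61 and 0.52) and the neutrophil collagenase Mmp8 in Bcl3-/- mice (0.46). Ctsk, the lysosomal collagenase cathepsin K (-0.80), and the collagen uptake receptor Mrc2 (-0.55) were called lower in Bcl3-/- mice, and the fibroblast protease Fap in Nfkb1-/- mice (-0.65). In wild type the largest values were those of Timp1, an inhibitor of metalloproteinases, at 0.90 (adjusted p = 0.0939) and of Mmp11 at 0.35 (adjusted p = 0.196). Of 4 measured collagen receptors 0 were called in any genotype by limma (at an unadjusted p under 0.05, 0, 2 and 0 were lower), with Ddr2 at -0.21 (adjusted p = 0.427) for wild type, -0.27 (adjusted p = 0.184) for Nfkb1-/- and 0.13 (adjusted p = 0.549) for Bcl3-/- mice. At that unadjusted p, 8.33%, 13.7% and 9.53% of all genes were lower.

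**Figure D4:**
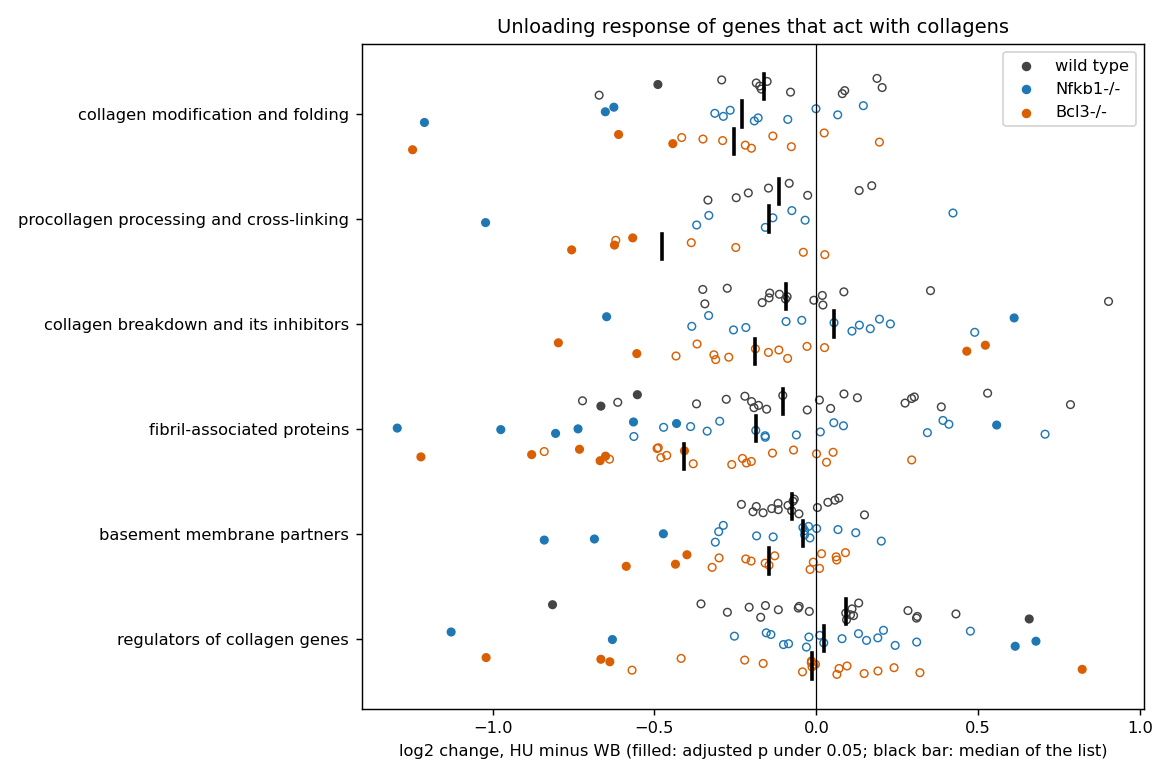
Log2 change with unloading (x axis) of the measured genes in 6 lists of genes that act with collagens (y axis), in the 3 genotypes. Each point is a gene, filled where the adjusted p is under 0.05, and black bars are list medians. The medians of modification, processing and fibril-associated genes lie left of 0 in all 3 genotypes, and those of the regulators lie near 0.

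Among 21 regulators of collagen genes, 1, 2 and 3 were called lower and 1, 2 and 1 higher, with medians of 0.09, 0.02 and -0.01. These counts stand beside 1.75%, 7.02% and 2.99% of all genes called lower and 2.18%, 5.22% and 7.5% called higher. Creb3l1, a transcription factor that drives type I collagen genes in bone and fibroblasts, was called lower in every genotype, at -0.81 (SE 0.18, adjusted p = 0.00987) for wild type, -1.13 (SE 0.18, adjusted p = 0.000335) for Nfkb1-/- and -0.67 (SE 0.18, adjusted p = 0.0196) for Bcl3-/- mice. In the TGF-β pathway, the main inducer of collagen mRNA, the receptor Tgfbr1 was called higher in wild type (0.66) and Nfkb1-/- mice (0.61). The inhibitory Smad7 was called higher (0.68) and the signal carrier Smad3 lower (-0.63) in Nfkb1-/- mice. In Bcl3-/- mice Ccn2, the connective tissue growth factor (-1.02), and Ltbp4, which binds latent TGF-β (-0.64), were called lower and Sp1, a factor that binds GC boxes, higher (0.82).

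Some markers of connective tissue cells were called lower as well. Over all genes, 1.75%, 7.02% and 2.99% were called lower in wild type, Nfkb1-/- and Bcl3-/- mice, and 2.18%, 5.22% and 7.5% higher. Of 8 fibroblast markers 0, 4 and 3 were called lower and 0 higher, with medians of -0.14, -0.49 and -0.44. Thy1 was called at -1.14 (SE 0.21, adjusted p = 0.000947) in Nfkb1-/- and -0.89 (SE 0.21, adjusted p = 0.00863) in Bcl3-/- mice, and Dpt (-0.43 and -0.41) and Lum (-0.74 and -0.65) in both as well. The summed level of the 8 ran from 2242 to 2365 in WB and from 2000.2 to 2317 in HU muscle of wild type, from 2157 to 2506 and from 2000.4 to 2369 in Nfkb1-/-, and from 11831 to 13879 and from 10616 to 12250.3 in Bcl3-/- mice. These summed levels, which the brightest markers weigh on most, overlapped between WB and HU in each genotype. The mean log2 level of the 8, relative to the WB mean, overlapped in wild type and Nfkb1-/- mice. In Bcl3-/- mice it did not, at -0.58 to -0.26 in HU and -0.23 to 0.14 in WB muscle. Of 6 measured tendon markers of 8 listed, 2, 3 and 2 were called lower and 0 higher, with Tnmd, a membrane protein of tendon cells, at -0.75 (SE 0.18, adjusted p = 0.0155), -1.27 (SE 0.18, adjusted p = 0.000123) and -0.86 (SE 0.18, adjusted p = 0.00368). Their summed level ran from 1922 to 2418 in WB and 1436 to 2071 in HU wild type muscle, from 1826 to 1969.6 and 1065 to 1533 in Nfkb1-/-, and from 12297 to 14842 and 9429.8 to 13594 in Bcl3-/- mice. The tendon sums thus lay apart in Nfkb1-/- mice and overlapped in wild type and Bcl3-/- mice. The tendon list shares Comp and Kera, and the fibroblast list Lum and Dpt, with the fibril-associated proteins. None of these markers was listed at 0, and the part that fewer fibroblasts or less tendon in the sample had in the collagen values was not tested.

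Among other cell types, most adipocyte markers were called in Nfkb1-/- mice, and few other markers were called. Of all genes, 1.75%, 7.02% and 2.99% were called lower in wild type, Nfkb1-/- and Bcl3-/- mice, and 2.18%, 5.22% and 7.5% higher. Of 8 macrophage markers and 4 measured cartilage and bone markers 0 were called in any genotype by limma, with Cd68 at 0.94 (adjusted p = 0.0708) in wild type and Matn3 at -0.57 (adjusted p = 0.0773) in Bcl3-/- mice as the largest values. At an unadjusted p under 0.05, 4, 1 and 0 macrophage markers were higher and 0, 0 and 2 cartilage and bone markers lower in wild type, Nfkb1-/- and Bcl3-/- mice. Of all genes, 9.69%, 11.5% and 16.5% were higher and 8.33%, 13.7% and 9.53% lower at that p. The macrophage medians were 0.36, 0.12 and -0.17. Of 8 endothelial markers, Emcn was called lower in Nfkb1-/- mice (-0.74) and Egfl7 higher in Bcl3-/- mice (0.60). Adipocyte markers were called higher for 3 of 4 in Nfkb1-/- mice, led by Retn (0.78) and Adipoq (0.75). Of 8 markers of regenerating fibres and satellite cells, Cdkn1a was called higher in Nfkb1-/- mice (1.52), and of 3 Schwann cell markers 0 were called by limma, where 0, 1 and 1 had an unadjusted p under 0.05.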

How the data were processed

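The authors read the scanner files into GenePattern 3.2.1, computed RMA values with quantile normalization and deposited 1 table of linear intensity per probe set, and GCOS and RMA are the tools in the submitters' processing notes. Quantile normalization over all 24 arrays together would leave like medians, which the deposited values do not have. The step behind the different scale of the Bcl3-/- arrays is not stated. All 24 value columns were used. Intensities were taken to log2 with no pseudocount. Only probe sets that exceeded 20 on 4 or more of the 24 arrays, those of Bcl3-/- mice included, were tested (19294 probe sets, 11098 genes) with limma 3.58.1 in R 4.3.3, 1 mean per group over all 24 arrays, Benjamini-Hochberg adjustment over all probe sets. A gene was represented by its tested probe set with the highest mean. The fit was tested on simulated data. Collagen genes named with values are the 10 of highest level and every gene called in a contrast. Of each other list, up to 4 called members with the largest change per genotype, or up to 2 where none was called, could be named. Intervals are limma's at 95%. The members and the 16 lists were chosen with earlier results of these data known. Columns of the study's own tests were not used. Of 16 alternatives, all were run; 1 more, without 2 arrays, was chosen after seeing the data. Neither deletion was checked, as the Bcl3 level lies on 2 scales and Nfkb1 is not analysed here.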

Additional observations from a re-analysis of the deposited data

Results flagged for a closer look

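Among 126 groups of 4 arrays of the named collagen genes, 2 (1.59%) held an array far from the other 3, where chance gives about 1 in 20. Col15a1 read 32.6 on Nfkb1-/- WB replicate 3, against 37.9 to 39.0 on the other 3 arrays. Col1a1 read 545 on wild type HU replicate 2, against 449.6 to 459 on the others, so that the 3 other arrays agreed closely. The unloading response of Col9a1 differed between wild type and Bcl3-/- mice by -1.05 on the log2 scale (limma, adjusted p = 0.0369), with -0.69 for wild type beside 0.36 for Bcl3-/- mice. This call was lost in 14 of 28 alternative settings, among them the replicate block (adjusted p = 0.0597) and the fit of only the groups compared (adjusted p = 0.0881), and the second probe set of the gene had -0.30 and -0.30.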

How the results depend on the processing

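The direction of every class median stayed negative under each alternative run. For single genes, 2238 values kept their direction and side of the threshold, 159 lost a call, 44 gained one and 6 changed sign, all of these 6 being uncalled wild type values near 0 of Col16a1 (-0.04, and -0.0852 to 0.0106 with arrays left out) and Col18a1 (0.02, and -0.0823 to 0.12 with arrays left out, and -0.15 with array weights). The 2 collagen genes called lower in wild type became 1 with a trend and robust variance or with quantile normalization again, 8 with array weights and 0 with log2 of the intensity plus 16 or with the methods' t-test under either adjustment, and 0 to 2 with single arrays left out. The 1 called higher in wild type became 0 in a fit of only the groups compared, with log2 of the intensity plus 16 and with the methods' t-test under either adjustment, and 0 to 1 with single arrays left out. The 13 called lower in Nfkb1-/- mice became 8 with log2 of the intensity plus 16, 0 with the methods' t-test and Benjamini-Hochberg adjustment and 2 with q-values, and 8 to 15 with single arrays left out. Over all alternatives other than single arrays left out, that count ran from 0 to 19. The 17 in Bcl3-/- mice became 0 with the methods' t-test under either adjustment and 11 to 17 with single arrays left out, where 0 to 1 were called higher. Across the alternatives other than single arrays left out, the Bcl3-/- count of lower genes ran from 0 to 21. In the mean of the 3 genotypes 1 to 2 were called higher with single arrays left out. The 1 difference between wild type and Bcl3-/- responses became 0 with the filter within each run and in a fit of only the groups compared, and 2 with array weights, quantile normalization again or within each run, log2 of the intensity plus 16, any probe set of a gene, or both arrays that stand apart left out, and 0 to 2 with single arrays left out. The gene called was not always Col9a1: with log2 of the intensity plus 16 it was lost and Col16a1 and Col4a5 were called, and with both arrays that stand apart left out it was lost and Col16a1 and Col1a1 were called. The cause of these shifts was not tested.

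The median of fibrillar genes in wild type was -0.27 with log2 of the intensity plus 16. That of other types in Nfkb1-/- mice was -0.42 with the filter within each run, which tests fewer genes. That of basement membrane genes in Bcl3-/- mice was -0.47 with the filter of the study, -0.53 with array weights, -0.46 and -0.44 with quantile normalization again and within each run, -0.47 with both arrays that stand apart left out, and -0.48 to -0.27 with single arrays left out. With replicate numbers fitted as a block, 2, 13 and 17 collagen genes were called lower in wild type, Nfkb1-/- and Bcl3-/- mice, and 0 in the wild type minus Bcl3-/- difference. Over 12 pairs of same-numbered arrays the correlation of deviations ran from -0.17 to 0.22 and was over 0.1 in 2. These values gave no clear sign that the numbers pair the mice, and cannot exclude it. For 15 of the 36 genes the wild type and Nfkb1-/- values rest on intensities under 20, where the signal over background limits the precision.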
